A study of Mus musculus with 4 samples.

Results

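The effect of exercise on the lung of mice without a tumor was described from the difference between a lung library of exercised mice and one of resting mice. Rows of the deposited tables were taken as members when their mean normalized count over all 4 lung libraries was at least 100, which held for 9396 of 23282 rows. The animals were male CDF1 mice, and no transgene or knockout was involved. Resting mice, E(-)T(-), were neither exercised nor given tumor cells, and exercised mice, E(+)T(-), ran at high intensity on a treadmill every other day. Mice of the other 2 groups were injected by way of the tail vein with CT26, a colorectal carcinoma line from mouse, and were kept at rest, E(-)T(+), or exercised, E(+)T(+). The lungs are called resting, exercised, tumor and exercised tumor lung below, and values of all 4 are given in that order. Per the labels the age was postnatal day 28 and a group held 10 mice. The methods give about that age for the purchase of the animals, so the age at sampling may differ. Each group had 1 lung library. The study took muscle from a single representative mouse of each group and describes its work on lung as similar, and the sources used here do not say outright whether a lung library came from 1 mouse or from several. No difference below therefore has a replicate check, and no test between conditions could be made.

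As background, cells meet heat, protein damage and hard muscular work with the heat shock response, in which heat shock factor 1 binds repeated GAA units in promoters and raises the transcription of chaperones. HSP70 and its DnaJ partners hold unfolded proteins, HSP90 and its cochaperones mature kinases and steroid receptors, and small heat shock proteins keep proteins from clumping. Exercise is also known to release glucocorticoids and catecholamines and to move neutrophils and platelets into the blood, part of which lies in the vessels of the lung.

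The 4 libraries held between 9354499 and 13368045 reads assigned to genes, with 13017431 in resting and 12780439 in exercised lung. Lung markers stood high in both of these, among them the surfactant gene Sftpc at a normalized count of 116987 in resting lung and 141162 in exercised lung, and the club cell gene Scgb1a1 at 428518 and 520665. Hemoglobin transcripts took 14.3% and 14.2% of the reads in the same order, against 1.43% in tumor lung and 31.4% in exercised tumor lung. The hemoglobin share was thus nearly equal in the compared pair and unequal in the tumor-bearing pair. All samples are whole lung, in which fewer cells of a type and less RNA per cell cannot be told apart.

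Few members differed by 2-fold or more, and most of those that did were higher after exercise, though 90 of them had low counts in the compared pair. Past that limit were 200 members (2.13%), of which 158 (1.68%) were higher and 42 (0.447%) lower in exercised lung. The share of higher genes among those past the limit was 79%, against 52.9% when the minimum mean count was 4, where 1513 of 15164 genes (9.98%) were past the limit, 5.28% higher and 4.7% lower. Over all members the median log2 difference was 0.021 and the median size 0.21, and 95% of the values lay between -0.669 and 0.845. Differences reached 7.03 upward, in Crabp1, and 1.69 downward on the log2 scale, in Slc20a2, and 33 members were over 4-fold higher while 0 were over 4-fold lower. Exact 95% intervals of the read ratio, which cover counting error only, excluded equality for 155 of the 158 higher and 41 of the 42 lower members, but lay wholly beyond 2-fold for 75 and 6 of them. Such intervals also excluded equality for 52.9% of all members, so they separate these libraries and not the conditions.

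The minimum of 100 read all 4 libraries, and 574 members passed it only through the tumor-bearing lungs. Members of that kind were let in by the lungs in which they are high, so lists rich in them are also counted below over the 8822 members that reach a mean of 100 in the tumor-free pair, of which 0.941% were past the limit higher and 0.306% lower. Of the 574, 75 were past the limit higher and 15 lower, together 90 of the 200. Lysmd1 (mean normalized count 100.06) and Sec22c (100.07) stood just inside the minimum, with log2 differences of -0.38 and -0.04. Usp11 and Cdk20 stood just outside it, both at 99.99, with -0.75 and -0.63.

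**Figure D1:**
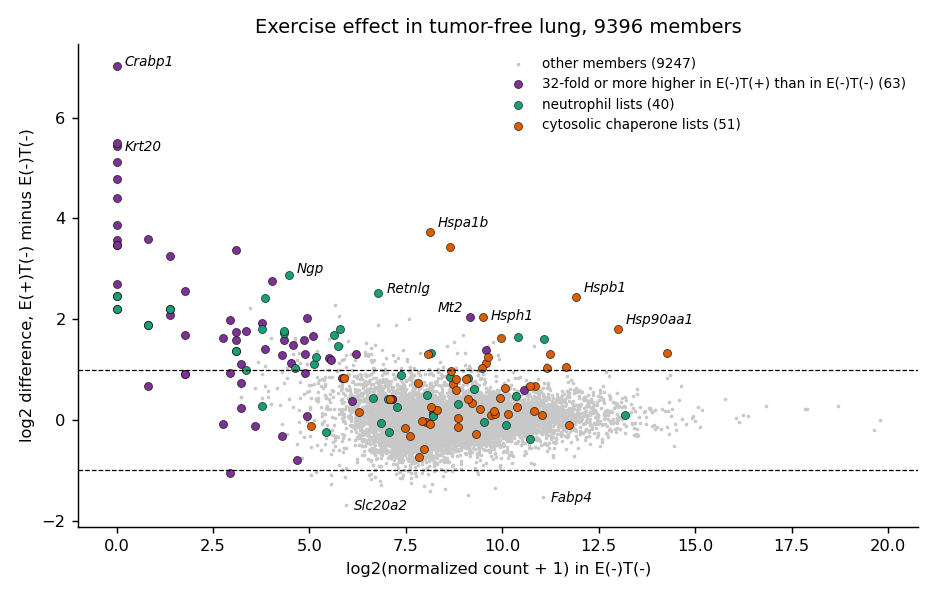
Log2 difference E(+)T(-) minus E(-)T(-) of each of 9396 members (vertical axis) against its log2(normalized count + 1) in E(-)T(-) (horizontal axis), with dashed lines at 2-fold. Chaperones (orange, 51 members) stood out at high counts, while members 32-fold or more higher in E(-)T(+) (purple, 63) and neutrophil genes (green, 40) made up much of the higher group at low counts, and 5 members belonged to more than 1 of these groups.

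Cytosolic chaperones made up a part of the higher genes. Of 51 members in 4 lists, HSP70 and HSP110, HSP90 and cochaperones, small heat shock proteins, and DnaJ and BAG proteins, 14 (27.5%) were 2-fold or more higher and 0 lower, against 1.68% and 0.447% of all members. Their median log2 difference was 0.43, and 40 of 51 were above 0. The lists were written with earlier results of these data known, so the counts describe them and are no independent evidence.

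Hspa1b and Hspa1a, neighbouring genes for the stress-inducible HSP70, differed most. Hspa1b (chr17:34956429-34959238, mm10) had normalized counts of 279 (resting), 3727 (exercised), 59.2 (tumor) and 48.1 (exercised tumor). Hspa1a (chr17:34969359-34972156) had 398, 4329, 23.1 and 70.3, in the order above. For each gene the exercised tumor-free library was highest, the resting tumor-free library came next, and both tumor-bearing libraries were far below. The log2 differences were 3.74 (interval 3.58 to 3.91) and 3.44 (3.31 to 3.58). These genes are near-identical copies, so how the reads divide between the copies is uncertain, though both point the same way.

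To show how alike the copies are upstream and where they carry 2 units of the heat shock element, 100 bases of their promoters are given. The bases run from position -150 to -51 relative to the RefSeq transcript start (GRCm38.p6, minus strand, chr17:34972207-34972306 for Hspa1a and chr17:34959289-34959388 for Hspa1b). The stretch is identical in the 2 genes, and 296 of the 300 bases of the whole promoter window match. Capitals mark GAANNTTC, a pair of inverted GAA units. The complete element of 3 units, searched below, was not found in the promoter window of either gene.
Hspa1a and Hspa1b: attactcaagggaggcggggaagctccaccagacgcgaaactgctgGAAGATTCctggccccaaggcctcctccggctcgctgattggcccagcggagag

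Among other HSP70 genes, the HSP110 exchange factor Hsph1 had normalized counts of 723 (resting), 2983 (exercised), 206 (tumor) and 374 (exercised tumor), a log2 difference of 2.04 (1.93 to 2.15). The constitutive HSC70 gene Hspa8 differed by 1.05 (0.99 to 1.11), from 3206 to 6635. Inducible and constitutive members thus both passed the limit, the inducible ones by more. Hspa4l (0.72) and Hspa4 (0.67) were inside the limit, and Hspa13 was at 0.22. Hspa12b, Hspa2 and Hspa14 lay between -0.02 and -0.14. The median over the 10 members was 0.69.

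Of the 18 members of the HSP90 list, 6 were past the limit, all higher (33.3%, against 1.68% of all members), with a median of 0.53. Hsp90aa1, the inducible HSP90, went from 8225 to 28764 normalized counts and stood at 8231 in tumor lung and 7336 in exercised tumor lung. Its log2 difference was 1.81 (1.77 to 1.84), and 3 libraries lay close together with the exercised tumor-free one far above. Hsp90ab1, the constitutive form, had 19605, 49255, 40876 and 13930, a log2 difference of 1.33. Here tumor lung was nearly as high as exercised lung, unlike for Hsp90aa1. The cochaperones past the limit were Chordc1 (1.26), Ahsa1 (1.12), which stimulates the ATPase of HSP90, Stip1 (1.03), which links HSP70 to HSP90, and Fkbp4 (1.02), a partner of steroid receptors. Fkbp5, Ptges3, St13 and Ahsa2 lay between 0.44 and 0.74, and Tsc1, at -0.57, was the lowest of the list.

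Small heat shock proteins differed among themselves. Hspb1, which guards actin and other proteins under stress, had normalized counts of 3866 (resting), 21056 (exercised), 1277 (tumor) and 5166 (exercised tumor), on 4550 and 22921 reads in the tumor-free pair. Its log2 difference was 2.44 (2.40 to 2.49). Hspb8 went from 270 to 668, a difference of 1.30 (1.11 to 1.50), and Hspb6 (0.84) and Hspb11 (0.42) were inside the limit. Cryab, the alpha B crystallin that is abundant in muscle and lens, was at -0.09, with 3370 and 3162. The exercised tumor-free library was therefore not higher for every small heat shock gene.

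The DnaJ and BAG list held 18 members and had a median of 0.19, with 2 past the limit, both higher (11.1%, against 1.68% of all members). Dnajb1, the main inducible HSP40, went from 1000 to 3073 normalized counts, a log2 difference of 1.62 (1.52 to 1.72). Dnaja1 went from 2414 to 5946, a difference of 1.30 (1.24 to 1.36). Dnajb4 (0.98), Bag3 (0.81) and Dnajc7 (0.81) came next, and Dnaja3, a mitochondrial member, was lowest at -0.73. Of the 18, 14 were above 0, where 52.7% of all members were, and 16 were inside the limit.

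**Figure D2:**
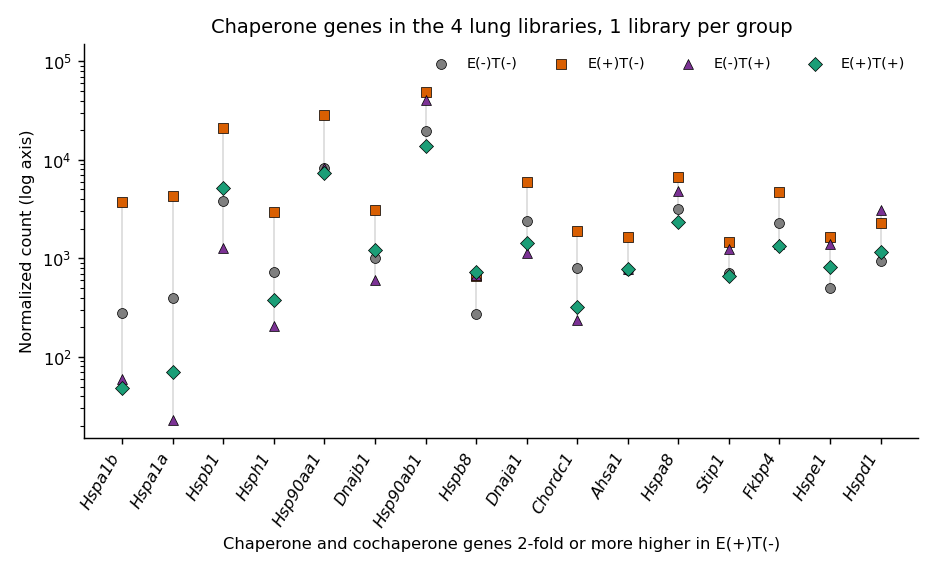
Normalized counts (vertical log axis) of the 16 chaperone genes 2-fold or more higher in E(+)T(-), 14 cytosolic and 2 mitochondrial, with 1 point for each of the 4 libraries. E(+)T(-) was the highest library for 14 of them, the exceptions being Hspb8, where E(-)T(+) and E(+)T(+) were slightly above it, and Hspd1, where E(-)T(+) was.

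Mitochondrial chaperones showed a divided picture. Hspe1 and Hspd1, the HSP10 and HSP60 genes that form 1 folding chamber, had log2 differences of 1.69 (1.55 to 1.82) and 1.28 (1.18 to 1.38), from 505 to 1628 and from 950 to 2310 normalized counts. The 8 other members of the list were inside the limit, where 1.68% of all members were past it upward, among them Hspa9, the mitochondrial HSP70, at 0.34, and Clpx, a protease subunit, at -0.79, and the median was 0.06. In the cytosolic chaperonin TRiC and prefoldin list 0 of 14 were past the limit, though 12 were above 0 with a median of 0.26 and Cct7 highest at 0.72.

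Complete heat shock elements were searched as 3 units, TTC, GAA and TTC with any 2 bases between them, or the same with GAA first, on both strands from 250 bases before to 50 after RefSeq transcript starts, which were at hand for 7152 members. They occurred in 43 of these members (0.601%) and in 0.603% of all 32851 promoter windows. Of 122 higher members with a promoter, 5 held one (4.10%), namely Hsph1, Hspe1, Hspd1, Chordc1 and Krt20, and of 28 lower members 0 did. Of 42 cytosolic chaperones with a promoter 3 held one, Hsph1, Chordc1 and Dnajb6, of which Dnajb6 was inside the limit at 0.41. The sites of the 4 chaperone genes among the higher members are shown, each on the strand of its gene with the element in capitals.
Hsph1 (chr5:149636287-149636316, minus strand, positions 21 to 50): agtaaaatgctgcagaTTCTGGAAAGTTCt
Hspe1 (chr1:55088050-55088079, plus strand, positions -98 to -69): cacggtccgTTCTAGAACCTTCcggaaggc
Hspd1 (chr1:55088056-55088085, minus strand, positions -153 to -124): cgcggggccTTCCGGAAGGTTCtagaacgg
Chordc1 (chr9:18292254-18292283, plus strand, positions -13 to 17): gtgcaaccgGAACGTTCGGGAAaattcctg

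The Hspe1 and Hspd1 stretches overlap on opposite strands, since these genes share a promoter, and they count as a single site in the genome. The shorter form GAANNTTC, which is part of each longer one and was searched after the values were seen, lay in 18 of 122 higher members (14.8%), 2 of 28 lower members, 6.77% of all members with a promoter and 7.86% of windows. Among the 11 higher cytosolic chaperones with a promoter, 8 held it, including Hspa1a, Hspa1b, Hspb1, Hspb8, Dnaja1 and Fkbp4. The Hspb1 site is given for comparison, with the short form in capitals.
Hspb1 (chr5:135887791-135887820, plus strand, positions -128 to -99): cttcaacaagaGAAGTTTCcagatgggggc

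Other motifs were counted in the same windows. The cAMP element TGACGTCA lay in 8.20% of higher members and 3.54% of all members, but in 0 of the 42 cytosolic chaperones with a promoter, the AP-1 site TGANTCA in 8.20% and 6.19%, the E-box CACGTG in 7.38% and 12.0%, and CCAAT in 50.8% and 42.4%. The ER stress element, CCAAT and CCACG with any 9 bases between them, which holds a CCAAT within it, was found in 0.140% of members and in 0 higher ones. A match is a description of letters and not a bound site.

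A smaller share of the ER folding genes (9.09%) than of the 51 cytosolic chaperones (27.5%) passed the limit, while the medians were close (0.45 and 0.43). ER chaperones and unfolded protein response genes had a median log2 difference of 0.45 over 22 members, with 17 above 0 and 2 past the limit upward, where 1.68% of all members were. These were Sdf2l1, an ER chaperone complex member (1.20, from 183 to 422 normalized counts), and Ddit3, the stress factor CHOP (1.02, from 573 to 1166). Hspa5, the ER HSP70 known as BiP, was just inside at 0.96, from 6644 to 12889. Proteasome subunits were above 0 in 30 of 36 cases, with a median of 0.15 and 0 past the limit. Of the heat shock factor and ubiquitin list, 1 of 11 was past the limit, Atf3 (1.48), where 1.68% of all members were higher. Cirbp, which encodes an RNA-binding protein known to be made at lower temperature, lay just inside the limit on the other side, at -0.98 (-1.21 to -0.76), with 437 in resting lung and 221 in exercised lung.

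Stress and hormone response genes were also among the higher members. Glucocorticoid targets had 4 of 16 members past the limit (25%, against 1.68% of all members higher), all higher, and a median of 0.74. They were Mt2, a metallothionein (2.04), Ddit4, an inhibitor of mTORC1 (1.54, from 431 to 1256 normalized counts), Cdkn1a, the cell cycle inhibitor p21 (1.47, from 1809 to 5017), and Errfi1, an inhibitor of EGF receptor signalling (1.15, from 334 to 744). Mt2 stood at 122294 in tumor lung, and its difference between the tumor-free libraries was 1.47% of that, whereas the differences of the other 3 were 27.2%, 85.6% and 27.2% of their tumor lung level. Fkbp5 (0.74) and Per1 (0.75), which glucocorticoids are known to induce, were inside the limit, and the list counts genes that other signals induce as well.

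Amino acid stress genes had 3 of 15 members past the limit, all higher, where 1.68% of all members were, and a median of 0.37. Mthfd2, a mitochondrial folate enzyme, was at 1.57 (1.19 to 1.99), Atf4, the transcription factor of this response, at 1.11 (1.05 to 1.18) and Ddit3 at 1.02. Of the 22 immediate early genes, 3 passed upward, Fosl1 (3.26), Atf3 (1.48) and Maff (1.38), and Fosl1 met the minimum only through the tumor-bearing lungs. Of the 19 that reach 100 in the tumor-free pair 2 passed (0.941% of all such members were higher), with a median of 0.18, and Fos itself was at -0.10 on 81 and 70 reads. Fosl1 had 2 reads in resting lung and 26 in exercised lung, a difference of 1.99% of its tumor lung level. Of the 17 NRF2 targets that reach 100 in the tumor-free pair 0 were past the limit, with a median of 0.05, and the heme oxygenase gene Hmox1, a member only through the tumor-bearing lungs, was at 1.58 (from 23.7 to 72.5). Of 11 such p53 targets Cdkn1a was the 1 past the limit, against 0.941%, with a median of 0.18, and Gdf15, let in by the tumor-bearing lungs, was at 1.33 (from 25.4 to 65.2). The inflammatory cytokine gene Il1b was the 1 of 13 NF-kappaB targets past the limit (1.68% of all members were higher), at 1.34 (1.15 to 1.53), and Nfkbia, a feedback inhibitor, was at 0.53. Clock genes had a median of -0.24 over 15 members, with the output factor Hlf past the limit downward at -1.30 (0.447% of all members were lower), and Nfil3 highest at 0.91.

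Part of the neutrophil genes were higher in exercised lung. Of 18 mature neutrophil genes 6 met the minimum count only through the tumor-bearing lungs, 4 of them past the limit higher. Of the other 12, 5 were past the limit, all higher (41.7%, against 0.941% of members that reach 100 in the tumor-free pair), 11 were above 0 and the median log2 difference was 0.85. Over all 18 it was 1.01. Retnlg, a resistin-like protein of neutrophils, had normalized counts of 110 (resting), 634 (exercised), 709 (tumor) and 15803 (exercised tumor), a difference of 2.52 (2.26 to 2.81). Il1r2, the decoy receptor for interleukin 1, went from 13.5 to 77.1, a difference of 2.43. S100a9, a subunit of calprotectin, had 2155, 6561, 4184 and 88598, a difference of 1.61 (1.54 to 1.67). For these genes exercised lung was above resting lung and far below exercised tumor lung.

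Granule protein genes, which are transcribed mainly in the bone marrow, had 4 of 15 members past the limit, all higher, but 3 of these 4 met the minimum count only through the tumor-bearing lungs. Of the 11 members that reach 100 in the tumor-free pair 1 was past the limit (0.941% of all such members were higher), 7 were above 0 and the median was 0.11. The 4 were Ngp (2.87, from 21.1 to 161), the collagenase gene Mmp8 (1.80, from 54.3 to 191), the cathelicidin gene Camp (1.77, from 19.4 to 68.8) and the integrin gene Itgam (1.24). Lyz2, which macrophages and type 2 cells also express, was at 0.11. All 7 members of the stefin A family of protease inhibitors met the minimum only through the tumor-bearing lungs, so that their counts say little of the tumor-free pair. Their differences lay between 1.11 and 2.47 on few reads, and 5 of 7 were past the limit with 2% of the tumor lung level subtracted. Stfa3 had 0 and 5 reads, Stfa2 0 and 4 and BC117090 1 and 6, the intervals of these 3 included 0, and the family consists of close copies whose reads are uncertain. Summed over the list, mature neutrophil genes stood at normalized counts of 6915 (resting), 16807 (exercised), 11363 (tumor) and 217086 (exercised tumor), and granule protein genes at 14865, 16281, 11902 and 42720. A large part of the mature neutrophil sum was that of S100a9, given above, and S100a8. S100a8, chosen after its values were seen, had 1366, 4299, 3909 and 90334. The part of neutrophil number in these differences was not tested.

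Platelet and megakaryocyte genes had a median of 0.85 over 12 members, 10 of them above 0, where 52.7% of all members were, and 2 past the limit upward, where 1.68% were. Gp9, a subunit of the receptor for von Willebrand factor, went from 53.4 to 151 normalized counts, a log2 difference of 1.48 (1.07 to 1.94), and Treml1, a receptor of platelet granules, from 233 to 583, a difference of 1.32 (1.12 to 1.53). The integrin genes Itga2b (0.97) and Itgb3 (0.93), which form the fibrinogen receptor, were just inside the limit, and the chemokine gene Pf4, the most abundant of the list, was at 0.59. The list summed to 5897 in resting lung and 8783 in exercised lung. Erythroid genes did not follow it, with a median of 0.08 over 18 members. In that list Hba-a1 was at -0.01 and Slc4a1, the anion exchanger of red cells, at -0.53.

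Lymphocyte and antigen presentation genes were mostly near or below 0. The 4 T cell members lay between -0.55 (Foxp3) and 0.15 (Cd3d). B cell genes were divided, where 1.68% of all members were past the limit upward and 0.447% downward, with Cr2, the complement receptor 2 (1.23, from 127 to 299), and Pou2af1 (1.02) past the limit upward, Vpreb3 (-1.37, from 366 to 141) downward and a median of -0.07 over 8 members. Interferon-stimulated genes were above 0 in 3 of 19 cases, with a median of -0.24, the lowest being Oasl2 (-0.67), and 0 were past the limit. Iigp1, an interferon-inducible GTPase that is not among those 19, was at -1.36 (-1.53 to -1.19), from 892 to 348. MHC class I genes had a median of -0.21 and 2 of 11 above 0, with H2-K1 at -0.52, while MHC class II genes had a median of -0.05 over 7.

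Cytotoxic genes were counted in 6 members, of which 3 met the minimum only through the tumor-bearing lungs and were past the limit, while the other 3 were below 0 and 0 of them past it (0.306% of members that reach 100 in the tumor-free pair were lower). The former were the granzyme genes Gzmf (5.13), Gzmd (3.88) and Gzmg (3.46), which lie close together on chr14, are close copies and had 0 reads in resting lung with 37, 15 and 11 in exercised lung. Gzma, a granzyme of natural killer cells, was at -0.53 (-0.67 to -0.40), from 983 to 679 normalized counts. The list median of 1.57 thus lay between a high and a low group of 3, and turned to -0.35 when the minimum of 100 was asked of the tumor-free pair alone.

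Alveolar macrophage genes had a median of -0.36 over 17 members, 5 of them above 0 and 2 past the limit downward, where 0.447% of all members were. Fabp4, a fatty acid carrier of macrophages, fat cells and capillaries, had normalized counts of 2116 (resting), 729 (exercised), 6255 (tumor) and 471 (exercised tumor), a log2 difference of -1.54 (-1.65 to -1.42). Exercise went with the lower count in the tumor-free and in the tumor-bearing pair. Ctsk, a cysteine protease, was at -1.06 and the cholesterol exporter gene Abcg1 at -0.73, while Chil3, the most abundant of the list, was at 0.47. Monocyte and interstitial macrophage genes had a median of 0.02 over 16, with the complement gene C1qb at 0.70 and Apoe, the most abundant of the list, at 0.27. Of 12 chemokine genes that reach 100 in the tumor-free pair 0 were past the limit. The B cell attractant gene Cxcl13, a member only through the tumor-bearing lungs, was at -1.08, with Ccl5 at -0.84 and Cxcl5 at 0.87.

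Fat and lipid synthesis genes were lower in part. Adipocyte genes had a median of -0.62 over 9 members, with 3 past the limit downward, where 0.447% of all members were, and 2 above 0. Adiponectin, encoded by Adipoq, went from 278 to 104 normalized counts, a log2 difference of -1.41 (-1.74 to -1.11), and stood at 84.4 and 56.2 in tumor lung and exercised tumor lung. Thrsp, which promotes lipid synthesis, went from 660 to 315, a difference of -1.06 (-1.25 to -0.88), and the lipid droplet gene Cidec from 486 to 266 (-0.87). The third past the limit was Fabp4. The list summed to 15701 in resting lung and 12386 in exercised lung, and the part of fat attached to the lung was not tested.

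Among fatty acid synthesis genes the elongase gene Elovl6 was past the limit at -1.14 (0.447% of all members were lower), while Acaca and Fasn were both at -0.57, Scd1 at -0.37 and Cyp51, of the cholesterol branch, at 0.59. The median of that list was -0.08 over 20. Fasting and fatty acid oxidation genes had a median of -0.17 over 18 and 0 past the limit, with Cpt1a at -0.56, its regulator Ppara at -0.52 and Acot2 highest at 0.93. Glycolysis genes had a median of 0.00 over 19, oxidative phosphorylation subunits one of 0.08 over 58, which turned to -0.0054 under scaling by library totals, and neither list had a member past the limit.

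Genes of the lung's own cells had medians near 0. Alveolar type 2 genes had a median of 0.00 over 19 members, alveolar type 1 genes of -0.03 over 16, airway secretory genes of 0.05 over 16, motile cilia genes of -0.08 over 13, endothelial genes of 0.01 over 27 and smooth muscle genes of 0.07 over 13, with 0 past the limit in each. Since 2.13% of all members were past it, a count of 0 in lists of this size is near the share over all members. The largest differences in them were those of Etv5, a type 2 cell transcription factor (-0.86), Cxcl15, a chemokine of lung epithelium (0.83), and Gabrp (0.82). Fibroblast and matrix genes had a median of 0.06 over 29, with the protease inhibitor gene Timp1 (1.14), a member only through the tumor-bearing lungs, past the limit and the collagen chaperone gene Serpinh1 at 0.86. Heart muscle genes, which in mouse lung come from the muscle around pulmonary veins, had a median of 0.18 over 10.

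**Figure D3:**
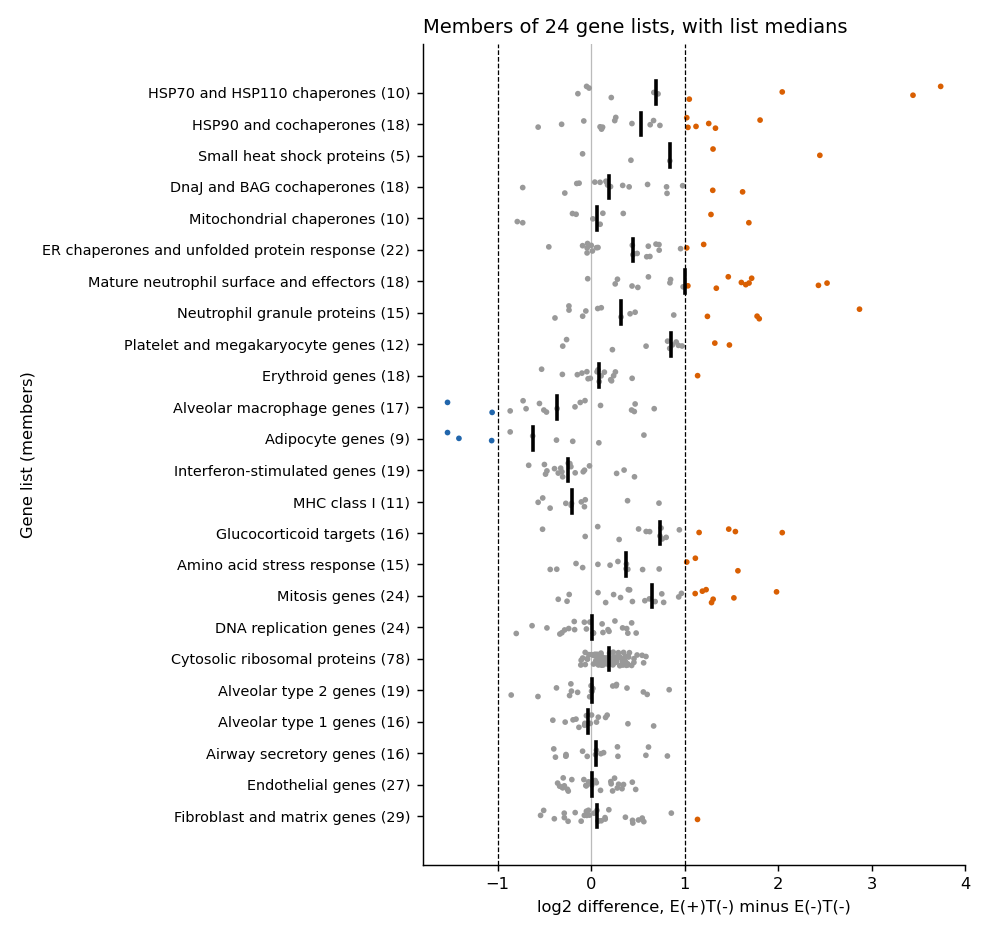
Log2 difference E(+)T(-) minus E(-)T(-) (horizontal axis) of each member of 24 gene lists (vertical axis, with the number of members), where black bars are list medians, dashed lines mark 2-fold, orange points lie past it upward and blue points downward. Medians lay to the right for the HSP70 (0.69), HSP90 (0.53), mature neutrophil (1.01), platelet (0.85) and glucocorticoid (0.74) lists. That of mitosis genes was 0.65, but 19 of 24 members met the minimum count only through the tumor-bearing lungs. Medians were nearer 0 for neutrophil granule (0.32), DnaJ and BAG (0.19) and mitochondrial chaperone genes (0.06). Adipocyte and alveolar macrophage lists lay to the left, and lists of lung epithelium and endothelium around 0.

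Most mitosis genes met the minimum count only through the tumor-bearing lungs, 19 of 24 members, and 6 of those 19 were past the limit higher. Of the 5 that reach 100 in the tumor-free pair 1 was past the limit higher (0.941% of all such members were), with a median log2 difference of 0.31, against 0.65 over all 24. The hyaluronan receptor and spindle gene Hmmr had 8 and 32 reads (1.98), the kinetochore gene Spc25 23 and 63 (1.53), the ubiquitin ligase gene Ube2c 34 and 79 (1.30) and the topoisomerase gene Top2a 140 and 281 (1.11). Their counts in the tumor-free pair were low, and the differences of the 7 past the limit were 2.44% to 9.11% of the tumor lung level. DNA replication genes had a median of 0.00 over 24 with 0 past the limit, from Fen1 (-0.80) to Pcna (0.48). Of these 24, 13 met the minimum only through the tumor-bearing lungs, and the other 11 had a median of 0.025 with 0 past the limit. With 2% of the tumor lung level subtracted from exercised lung, the medians over all 24 members of each list became 0.13 for mitosis and -0.25 for DNA replication genes. Cytosolic ribosomal protein genes were above 0 in 70 of 78 cases, with a median of 0.19, the highest being Rps27a (0.59). Ribosome biogenesis genes had a median of 0.28 over 29 members, 22 of them above 0, with Nop58 (0.83) highest, and both lists had 0 past the limit.

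Many of the highest differences were those of genes abundant in the tumor-bearing resting lung. The difference between exercised lung and resting lung in normalized counts was therefore set beside the tumor lung level of the same gene. It came to at most 2% of that level for 22 of the 158 higher members, to over 2 and up to 10% for 34, to over 10 and up to 50% for 30, and to over 50% for 72. In the lowest of these classes the median was 2.5 reads in resting lung and 33 in exercised lung, and in the highest class 217 and 478. Once 1% of the tumor lung level was subtracted from exercised lung, 140 of the 158 were still past the limit, and with 2% subtracted 112 were.

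Crabp1, a carrier of retinoic acid, had 0 reads (resting), 141 (exercised), 10477 (tumor) and 382 (exercised tumor). Its level in exercised lung was 1.13% of that in tumor lung (exact interval 0.949 to 1.33). The row 3110039M20Rik had 0, 11, 1429 and 126 reads, and 0.642% (0.321 to 1.16). Both were absent from the reads of resting tumor-free lung, low in exercised lung and highest in tumor lung.

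Other genes with 0 reads in resting lung showed a like order of libraries. Osr2, a transcription factor gene, had 29 reads in exercised lung, a rise of 1.45% of the tumor lung level, Krt20, a keratin gene of gut epithelium, 46 reads (1.43%), and Etv4, an ETS factor gene, 12 reads (1.47%). Cenph, a kinetochore gene, had 22 reads and stood further off, at 5.63%. Against a floor of 3 reads in resting lung, Crabp1 was 50.8-fold and Gzmf 13.3-fold higher in exercised lung. Exact intervals, which also hold the counting error of exercised lung, started at log2 differences of 5.35 and 3.37.

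Genes with more reads in resting lung gave similar shares. Mt2 had normalized counts of 576 in resting lung and 2378 in exercised lung, a difference of 1.47% of its 122294 in tumor lung. The acute phase gene Saa3 went from 73.0 to 183, which was 1.24% of 8877, and Rpl39l, a ribosomal protein copy, from 7.54 to 87.2, which was 1.97% of 4053. S100a4, Hmga2 and Cntn1, chosen after their values were seen, gave 1.82%, 1.76% and 1.82%.

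Over all 63 members that were 32-fold or more higher in tumor lung than in resting lung, the quartiles of this share were 0.927, 1.81 and 2.76%. Of these members 58 had a difference above 0, 44 were past the limit higher and 1 lower, Ckap2, chosen after its values were seen, at -1.05. Among the 15 that were 256-fold or more higher, the share ran from 0.642 to 5.63% with a median of 1.74%, and all 15 were past the limit. These comparisons share the resting lung library, so a chance low count there raises both differences. The origin of these reads in exercised lung was not tested, and no replicate of that library bears on it.

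The chaperones past the limit had larger shares. Of the 37 cytosolic ones inside it, 11 were highest in exercised lung, 13 in tumor lung, 8 in exercised tumor lung and 5 in resting lung, and Fkbp5 and Hspb6, highest in tumor lung, had differences of 4.97% and 10.7% of that level. For those past the limit the differences came to 43.5% of the tumor lung level for Hspd1 and 59.2% for Hspb8, and to 250% for Hsp90aa1, 345% for Dnajb1, 1097% for Hsph1 and 5819% for Hspa1b. All 14 cytosolic chaperones past the limit remained there with 2% of the tumor lung level subtracted. Of the mature neutrophil genes that reach 100 in the tumor-free pair, the 5 past the limit also stayed past it, with shares from 49.3 to 287% of tumor lung. All 18 mature neutrophil genes were higher in exercised tumor lung than in tumor lung, and set against exercised tumor lung the differences of the same 5 came to 3.25 to 22.6%, with 3.32% for Retnlg, 4.97% for S100a9 and 22.6% for Il1b. Il1r2, let in by the tumor-bearing lungs, was at 1.48%.

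**Figure D4:**
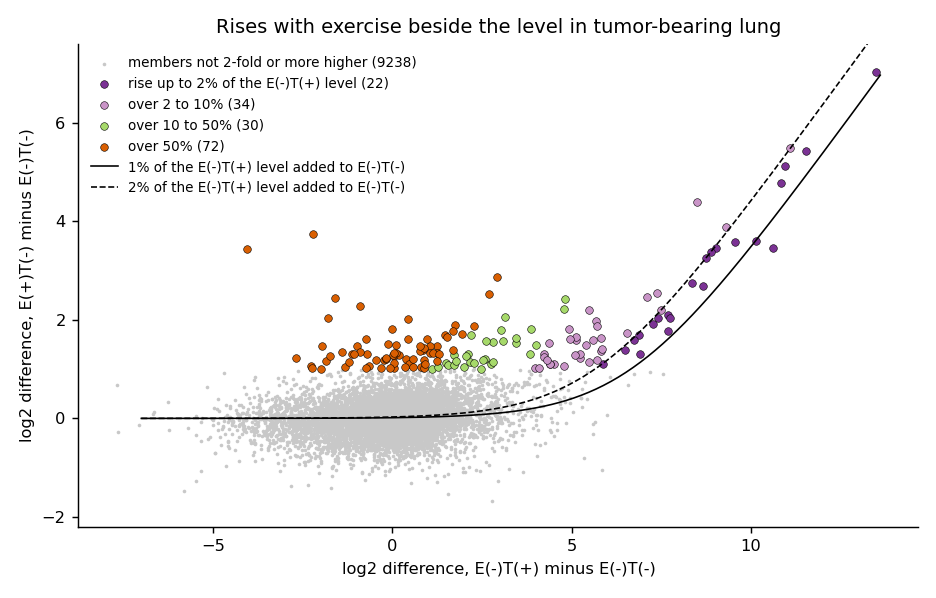
Log2 difference E(+)T(-) minus E(-)T(-) (vertical axis) against log2 difference E(-)T(+) minus E(-)T(-) (horizontal axis) of 9396 members, with the 158 higher members coloured by the size of the difference as a percent of the E(-)T(+) level. Lines show what adding 1% or 2% of the E(-)T(+) level to E(-)T(-) would give, and the members 256-fold or more higher in E(-)T(+) lay on or near these lines, apart from Cenph above them, while 72 members (orange) lay far from them.

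The 42 lower members included the adipocyte and alveolar macrophage genes above. Among the others, Slc20a2, a phosphate transporter gene, had 72 reads in resting lung and 20 in exercised lung, a log2 difference of -1.69, with an interval that started at -2.53. Pknox2, a homeobox gene, went from 551 to 197 normalized counts (-1.48, -1.72 to -1.26), and Aplnr, the apelin receptor gene of endothelium, from 291 to 120 (-1.27). Map3k9, a kinase gene, Glce and Dse, whose enzymes shape glycosaminoglycans, and the quinone reductase gene Cryz lay between -1.15 and -1.29. The centriole kinase gene Plk4 was at -1.28 on 54 and 20 reads, opposite to the mitosis genes above. Of the 42, 15 met the minimum only through the tumor-bearing lungs, each being high in at least 1 of these. Slc20a2, Cryz and Plk4 are among the 15, and Slc20a2 had normalized counts of 424 in tumor lung but 10.7 in exercised tumor lung. Of the 27 that reach 100 in the tumor-free pair, 11 were 2-fold or more lower and 3 higher in tumor lung than in resting lung, where 21.2% and 14.8% of all such members were. Over all members 38.3% passed that limit, 20% lower and 18.3% higher. That comparison shares the resting library with the exercise effect.

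The exercise effect with tumor, exercised tumor lung minus tumor lung, comes from the other pair of libraries and shares none with the tumor-free one. There 33.7% of the members passed the limit, 19.5% higher and 14.3% lower. Of the 158 members higher without tumor, 55 were also higher and 60 lower with tumor, and of the 42 lower ones 18 were also lower and 9 higher, but many of these were let in by the tumor-bearing lungs themselves. Over the members that reach 100 in the tumor-free pair, 35 of 83 higher ones were also higher with tumor and 15 lower, where 19.8% and 12.2% of all such members were. Of 27 lower ones 9 were also lower and 8 higher. The difference between the 2 exercise effects could not be tested with 1 library in each group.

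Chaperones were divided in this respect. The median over the 51 cytosolic members was 0.43 without tumor and 0.003 with tumor. Hspb1 (2.44 and 2.02) and Dnajb1 (1.62 and 1.01) were higher in both pairs. The near-identical Hspa1a (3.44 and 1.56) and Hspa1b (3.74 and -0.30) parted with tumor, on 21 and 60 reads for Hspa1a and 54 and 41 for Hspa1b, and their sum, taken after the values were seen, gave 3.57 and 0.52, inside the limit with tumor. Hsp90ab1 (1.33 and -1.55) and Hspa8 (1.05 and -1.02) were higher without and lower with tumor. Hsp90aa1 (1.81 and -0.17), Ahsa1 (1.12 and 0.00) and Fkbp4 (1.02 and -0.04) were past the limit without tumor and near 0 with it. Mitochondrial Hspd1 was at 1.28 and -1.43. In tumor lung, Hsp90ab1, Hspa8 and Hspd1 already stood above resting lung, whereas Hspb1, Hspa1a and Dnajb1 stood below it.

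Medians of neutrophil and platelet genes were above 0 in both pairs, and larger in the tumor-bearing one. Over members that reach 100 in the tumor-free pair, medians were 0.85 without and 3.47 with tumor for mature neutrophil genes, 0.84 and 2.76 for platelet genes and 0.07 and 4.85 for erythroid genes (1.01 and 3.27, 0.85 and 2.96, and 0.08 and 5.05 over all members), beside hemoglobin shares of 1.43% and 31.4% of the reads in the tumor-bearing pair. Retnlg (2.52 and 4.48), Gp9 (1.48 and 2.74), Ddit4 (1.54 and 1.02), Cdkn1a (1.47 and 2.33), Atf3 (1.48 and 3.58) and Gdf15 (1.33 and 4.03) were past the limit in both. Ribosomal protein genes, at 0.19 and -0.64, lay on opposite sides of 0. Mitosis genes were at 0.65 and -1.71, but 19 of the 24 met the minimum only through the tumor-bearing lungs, and without those 19 the values were 0.31 and -1.43. Alveolar type 2 genes (0.00 and 2.06) and endothelial genes (0.01 and 2.67) were near 0 without tumor and higher with exercise in the tumor-bearing pair. Interferon-stimulated genes (-0.24 and 0.90) and alveolar macrophage genes (-0.36 and 1.40) were below 0 without and above 0 with tumor.

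**Figure D5:**
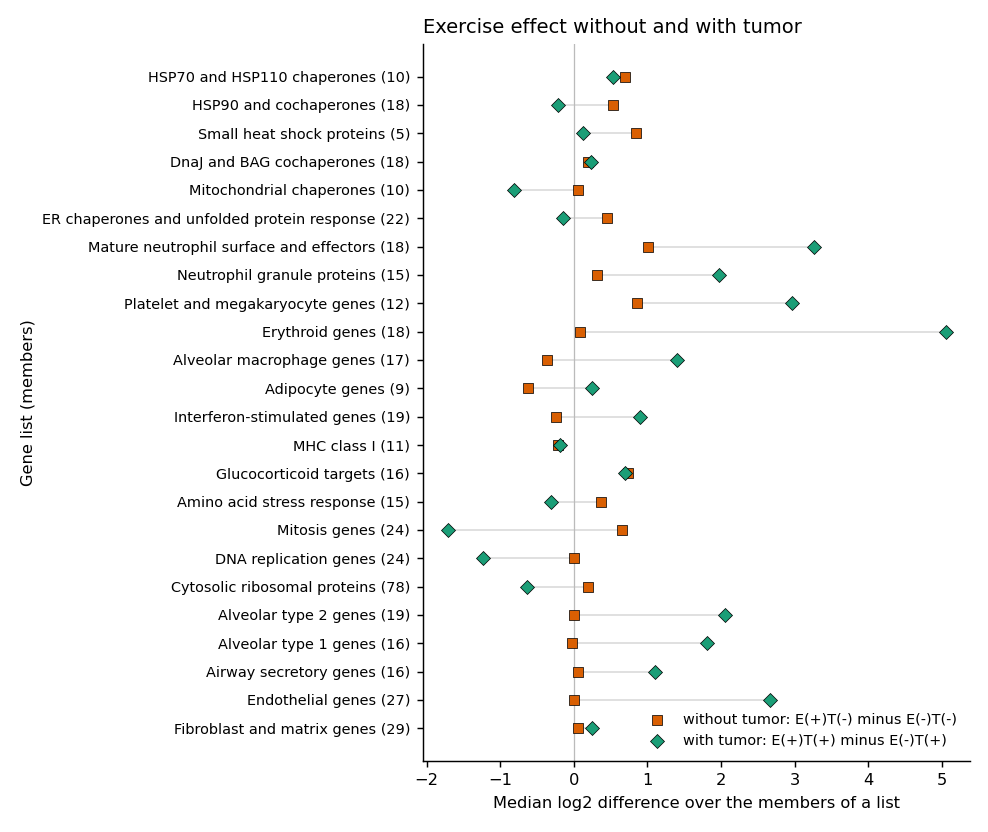
Median log2 difference (horizontal axis) of 24 gene lists (vertical axis, with the number of members) for exercise without tumor (orange squares) and with tumor (green diamonds), joined by grey lines. Medians without tumor lay between -0.62 and 1.01, while those with tumor ran from -1.71 for mitosis genes to 5.05 for erythroid genes.

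Of 15 genes named by the study for lung or other tissues, 4 were members. Timp1 (1.14 and -1.25 without and with tumor) was past the limit in both, on 26 and 54 reads without tumor, a difference of 2.70% of its tumor lung level. Cflar, an inhibitor of apoptosis, was at 0.35 and -0.13, the collagen gene Col1a1 at -0.05 and -0.24 and the AP-1 gene Fos at -0.10 and 1.63. The other 11 were under the minimum count of 100. Of these, Car3, a carbonic anhydrase of muscle and fat, fell just short of it (98.5) and had 331 and 74 reads, a difference of -2.04 (-2.43 to -1.68). Hcar1 (-2.76, on 28 and 3 reads) and Acta1 (-1.72, on 31 and 8) were also past the limit downward, and Cacna1s (2.83, on 2 and 19), Nup98 (1.34, on 19 and 46) and Rdh11 (1.06, on 27 and 53) upward. These were 6 of the 10 with a mean of at least 4, a level at which 9.98% of all genes were past the limit. The study named all 6 as changed in lung from these same libraries, so their share follows from that choice. Il15 was inside it on 101 and 94 reads. The differences of Myoz2 (89 and 55 reads), Actn3 (11 and 13) and Trim63 (2 and 3) were also inside, but their intervals reached beyond it. For Six2, with 0 reads in both tumor-free libraries, no difference was measured. Some of the 15 were picked in the study from these lung libraries, among them Cflar, Cacna1s, Actn3, Myoz2, Il15 and Acta1. It also listed Timp1, Car3, Hcar1, Nup98 and Rdh11 as changed in lung and in the other tissues. The differences of all these genes are therefore no independent evidence. Others, such as Fos, Col1a1, Six2 and Trim63, were picked from muscle.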

How the data were processed

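Lung RNA was measured by QuantSeq 3' mRNA sequencing, in which a read marks a transcript end, with 1 library per group. Per the submitters' processing notes and the study's methods, the authors aligned reads with Bowtie2 to mm10, counted them per gene with bedtools coverage and applied edgeR's quantile normalization. Versions, annotation and strand use are not given in the sources used here, so overlapping genes and near-identical copies may share reads. The deposited values are log2 values at 3 decimals, found to equal log2(normalized count + 1), and a fold change on that scale is too small for low genes.

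Files were joined by row. Whole reads were recovered from the deposited log2 values by inverting the negative binomial quantile adjustment (dispersion 0.372), which returned 100% of values within 0.001 and resolved 94.6% to 1 read. Totals were 13017431 (resting), 12780439 (exercised), 9354499 (tumor) and 13368045 (exercised tumor) reads. Exact (Clopper-Pearson) 95% intervals of the read ratio, scaled by effective library sizes, and floors of 3 reads cover counting error only. The limit was a 2-fold difference, with no test.

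The members and the 52 gene lists were chosen with earlier results of these data known. Genes named were the 15 largest rises and falls, the 4 members of each list with the largest difference and its most abundant member, all cytosolic chaperones and the study's genes among the members. Others are said to be chosen after their values were seen, and a few genes of the lists are counted but not reported here by name. Lung markers and the rows at the minimum count were given as checks. Gene positions and promoters are from RefSeq (GRCm38, the assembly of mm10), and 12 members share a symbol with another row. Alternatives were other minimum counts, pseudocounts and scalings, and subtraction of 1% or 2% of the tumor lung level. Scripts were tested on simulated data. Python 3.11.15, numpy 2.4.6, pandas 2.3.3, scipy 1.17.1 and matplotlib 3.10.9 were used.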

Additional observations from a re-analysis of the deposited data

Results flagged for a closer look

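Between the exercised and resting libraries, 69 members differed by 2-fold or more in opposite directions without and with tumor. Of these, 60 were higher without and lower with tumor, and 9 were lower without and higher with tumor. Over all members, 14.3% were lower and 19.5% higher with tumor. The minimum count favours such genes, since many met it only through the tumor-bearing lungs. Over members that reach 100 in the tumor-free pair the numbers were 15 of 83 higher and 8 of 27 lower ones. With tumor, 12.2% of all such members were lower and 19.8% higher. The genes were flagged because the single library of each group lay on opposite sides, and the difference between the effects was not tested. Of the 60, 46 differed by at most 10% of their tumor lung level without tumor, and the origin of these reads was not tested. Among the other 14 were Hsp90ab1, Hspa8 and Hspd1. The 9 included Pknox2 (-1.48 and 4.15), Vpreb3 (-1.37 and 1.77), Iigp1 (-1.36 and 3.18) and Aplnr (-1.27 and 3.27).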

How the results depend on the processing

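The number of members past 2-fold followed the minimum count. It was 200 at a mean of at least 100, 323 at 50 (101 lower), 121 at 200 (11 lower), 1513 at 4 (800 higher and 713 lower), 2606 without a minimum (1315 and 1291) and 119 (88 higher) when the mean was taken over the tumor-free pair alone. A pseudocount of 10 left 23 lower members, and subtracting 2% of the tumor lung level, which lowers exercised lung by construction, gave 88 lower and 56.0% higher. Scaling by library totals moved the median of all members to -0.06 and gave 136 higher and 61 lower, or 69.0% higher. List medians that moved by this scaling were those of proteasome subunits (0.0667), glycolysis genes (-0.0894), oxidative phosphorylation subunits (-0.0054), ribosomal proteins (0.11) and the 2 dendritic and mast cell genes (-0.72, and -0.36, -0.13 and 0.0695 at minimums of 50 and 4 and without one). The stefin A median was 1.09 with a pseudocount of 4 and 0.82 with 10. That of cytotoxic genes turned to -0.11 (minimum 50), -0.0415 (4), -0.008 (no minimum), -0.35 (tumor-free pair alone) and -0.17 (2% subtracted). With 1% subtracted the glycolysis median was -0.051, and with 2% it was -0.073, that of DNA replication genes -0.25 and that of mitosis genes 0.13. AA467197 turned to -0.41 with 1% subtracted and to -0.81 with 2%. With 2% Rpl39l became -0.25, Fosl1 -0.07, Saa3 -3.56 and Mt2 -9.17, where a level below 0 was set to 0. Of 273 named genes, 239 moved little with 2% subtracted, 216 under library totals and 273 under median-of-ratios scaling; beyond the construction of each setting the cause was not tested. Depth limits low genes, as for Hmmr, where 8 and 32 reads gave an interval of 0.96 to 3.44. No paired analysis was possible because each group had 1 library.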

Other observations

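Higher members outside the gene lists included several with many reads. The genes in this paragraph and the next were chosen after their values were seen, except Il1b and Il1r2. Lrpprc, which steadies mitochondrial transcripts, went from 109.5 normalized counts in resting to 404 in exercised lung, a log2 difference of 1.88 (1.60 to 2.18). It was lower with exercise in the tumor-bearing pair, by a log2 difference of -1.64. The tubulin genes Tubb2a (1.06) and Tubb2b (1.29) were past the limit as well, as was Cacybp, a partner of HSP90 cochaperones and ubiquitin ligases (1.33). Crem, a transcription factor gene of the cAMP pathway, went from 193 to 401 (1.05, 0.82 to 1.29) and stood at 76.8 in tumor lung. The endothelial tetraspanin gene Tspan18 went from 376 to 1037 (1.46, 1.31 to 1.63), and the matrix protease gene Adamts9 from 87.5 to 253 (1.52).

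Il1rn, the antagonist gene of the interleukin 1 receptor, was at 1.30 (0.96 to 1.66), from 85.8 to 212. Il1b was at 1.34, and the decoy receptor gene Il1r2, a member only through the tumor-bearing lungs, at 2.43. Genes of interleukin 1 signalling were not counted as a list. Of the mature neutrophil list, the chemokine receptor gene Cxcr2, a member only through the tumor-bearing lungs, was at 1.47, from 52.6 to 147. S100a8 of the same list, the partner of S100a9, went from 1366 to 4299 (1.65). Outside the platelet list, F5, which encodes coagulation factor V, went from 169.8 to 445 (1.39), and Alox12, a lipoxygenase gene of platelets, from 90.8 to 219.6 (0.94 to 1.61). Among lower members outside the lists, the complement gene C4b went from 653 to 321 (-1.02), the aryl hydrocarbon receptor gene Ahr from 362 to 180 (interval -1.26 to -0.76) and the lectin receptor gene Cd302 from 350.2 to 162 (-1.11). None of these differences has a replicate check.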
